A study of Mus musculus with 2 samples.

Results

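Alveolar macrophages are the resident macrophages of the airspace, and in these data they were 47 of the 4418 mutant and 48 of the 4141 control lung cells kept, or 95 of 8559 cells in all. A cell was a member if it held at least 3 UMIs (unique molecular identifiers, 1 per captured mRNA molecule) of the leukocyte genes Tyrobp and Laptm5 and at least 5 UMIs of the alveolar macrophage genes Chil3, Marco, Ear1, Ear2 and Krt79. It also had at most 10 UMIs of the complement genes C1qa, C1qb and C1qc, which mark interstitial macrophages, and at most 2 UMIs of Epcam, Pecam1 and Col1a2. Only cells with at least 500 genes and under 10% mitochondrial UMIs were considered. The members were thus chosen by measured UMI counts of these genes, so the levels of these genes describe the choice and are not results. Lungs were from mice at postnatal day 10, and FACS-sorted epithelial, immune, endothelial and mesenchymal cells were profiled together by droplet-based 3' single-cell RNA-seq. There was 1 library from mutant mice, labelled Nkx2-1;Aqp5, and 1 library from control mice, labelled Nkx2-1. The labels name no allele for either genotype, leave out how Nkx2-1 was altered, and give neither the number of animals per library nor their sex. Nkx2-1 is the lung epithelial homeobox transcription factor, and Aqp5 is a water channel gene of alveolar type 1 cells whose regulatory sequences are used to drive Cre.

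Fetal monocytes enter the lung before birth and become alveolar macrophages in the first days of life, under GM-CSF made by alveolar epithelium and under TGF-beta, through the transcription factor PPAR-gamma. Mature alveolar macrophages take up and break down surfactant lipid, hold large stores of lysosomal enzymes and iron, and divide locally. When they are stimulated they transcribe immediate early genes and then cytokines and chemokines such as TNF, IL-1 and CXCL2, which call neutrophils into the airspace.

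The mutant library held 47271104 UMIs in 4551 barcodes and the control library 29862980 UMIs in 4461 barcodes. Members had a median of 5491 UMIs per cell in the mutant and 5647.5 in the control library, and they summed to 294509 UMIs in the mutant and 298895 UMIs in the control library, so the depth behind the 2 sums was nearly equal. Nkx2-1 stood at 22.9 CPM (UMIs scaled to a library sum of 1e+06 over the cells of a class) in mutant and 354 CPM in control epithelial cells. In the members it was read from 3 mutant and 5 control cells, none of which stayed in the reduced set defined below. Of all barcodes, 27 occurred in both libraries, and 2 members had a barcode that the other library also held. With 1 library per genotype there is no replicate and no test, and genotype, library, sort and preparation cannot be told apart. Intervals below are exact 95% intervals that cover counting error only. A gene was compared where it had at least 20 UMIs over both libraries in the members, and a difference was counted from 2-fold.

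The share of alveolar macrophages was alike in the libraries. They were 1.06% of kept cells in the mutant (Clopper-Pearson interval 0.783 to 1.41) and 1.16% in the control library (0.856 to 1.53), and 30.9% of 152 mutant against 27.3% of 176 control cells that passed the leukocyte and stromal limits. The sort sets the share of leukocytes in both. Most members passed on the eosinophil-associated ribonucleases alone: Ear1 and Ear2 reached the limit without the other 3 genes in 37 of 47 mutant and 43 of 48 control cells. Just inside the limit, 17 mutant and 13 control cells had 5 to 7 UMIs of the 5 genes, and just outside it 13 mutant and 12 control leukocytes had 3 or 4. A further 5 mutant and 4 control cells reached the marker limit but had too many C1q UMIs, and 23 mutant and 10 control cells had too many UMIs of Epcam, Pecam1 and Col1a2.

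The name was checked against 13 alveolar macrophage markers that the rule did not use, among them Siglecf, Itgax (CD11c), Pparg, Car4, Plet1, Atp6v0d2, Cidec, Mrc1 (CD206) and Fabp4. Their summed count had a median of 18 UMIs in mutant and 22 UMIs in control members, against 0 in both libraries in 54 mutant and 49 control leukocytes with monocyte genes. At least 5 such UMIs were present in 44 of 47 mutant members and 18 of 105 other mutant leukocytes, and in 38 of 48 control members and 9 of 128 other control leukocytes. The complement genes were at 0 in all 47 mutant and in 46 of 48 control members. The rule limited these genes to at most 10 UMIs, so their low level describes the choice and is no check of the name. A minority of members carried RNA of another cell type. Neutrophil genes (S100a8, S100a9 and Retnlg) gave 1733 and 2475 UMIs in 2 mutant cells and 2060 UMIs in 1 control cell, against at most 13 and 3 UMIs in the other mutant and control members. Of the rest, 10 mutant and 8 control cells carried epithelial RNA, taken as at least 20 UMIs over 15 epithelial genes or at least 100 UMIs of Sftpc, the surfactant protein C gene. A last 1 mutant and 7 control cells had under 5 UMIs of the 13 unused markers, and monocyte markers were at 3 or more UMIs in 1 mutant and 6 control cells of these. Without all of these cells, which were chosen after their values were seen, 34 mutant and 32 control cells remain. These are called the reduced set, and list medians and the leading genes are given for all members and for this set.

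**Figure D1:**
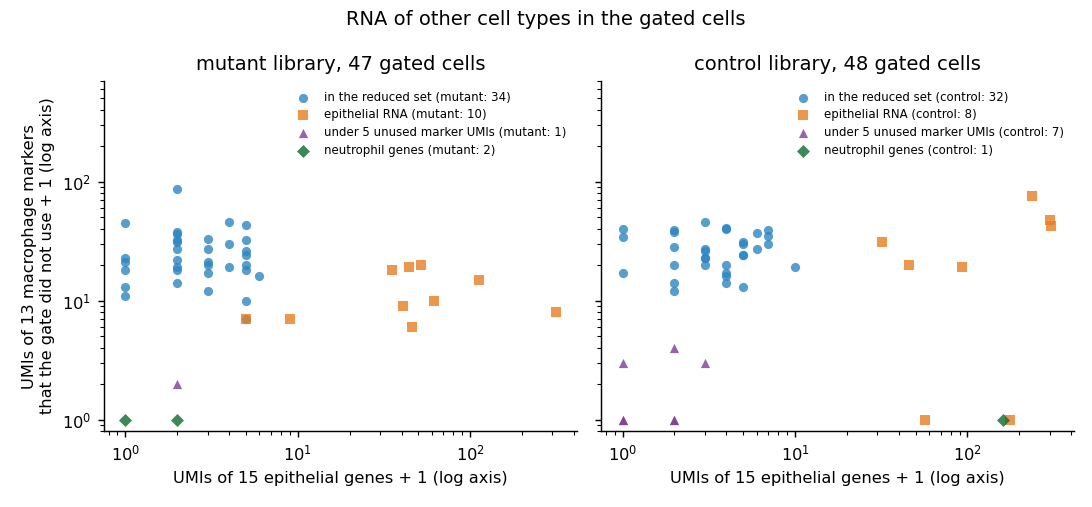
Each point is 1 member; the horizontal axis is its UMIs over 15 epithelial genes plus 1 and the vertical axis its UMIs over the 13 unused macrophage markers plus 1, both on log axes, with the mutant library left and the control library right. The 34 mutant and 32 control cells of the reduced set sit at the upper left of each panel, at 5 or more marker UMIs and under 20 epithelial UMIs.

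Among 3831 genes compared in the members, 261 (6.81%) were at least 2-fold higher and 295 (7.7%) at least 2-fold lower in the mutant library. In the reduced set the same count over 2330 genes gave 128 higher (5.49%) and 168 lower (7.21%). The median log2 ratio over all compared genes was -0.05 in the members and 0.00 in the reduced set, so the centre of the distribution lay at equal levels. In the monocyte gate 201 of 4005 genes (5.02%) were higher and 399 (9.96%) lower, and in endothelial cells 732 of 10371 genes (7.06%) were higher and 314 (3.03%) lower. Of the genes past 2-fold in members, 57 moved the same way in endothelial, mesenchymal and other immune cells by at least 0.5 of the size on the log2 scale. The transcript model Gm42418, with 425 UMIs (1443 CPM) in mutant and 77 UMIs (258 CPM) in control members, and mt-Atp8, Spp1 and Junb were among these library-wide differences.

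**Figure D2:**
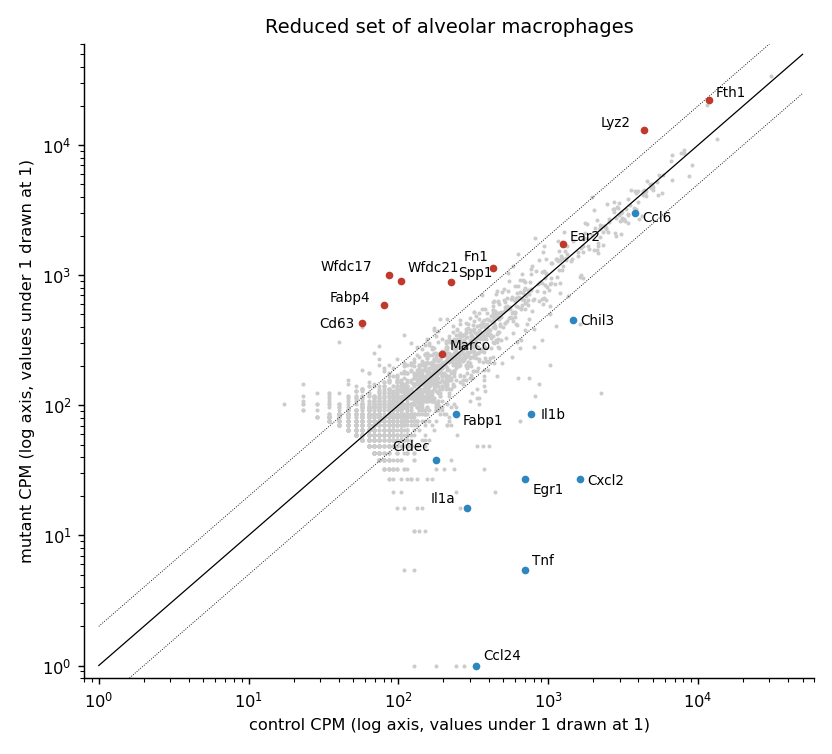
Each point is 1 gene with at least 20 UMIs in the reduced set, with control CPM on the horizontal and mutant CPM on the vertical log axis; the solid line is equality and the dotted lines are 2-fold. Tnf, Cxcl2, Il1b, Il1a, Egr1 and Ccl24 lie far below the lines and Wfdc17, Wfdc21, Fabp4, Cd63 and Spp1 above them, while Ccl6 lies inside them; Ear2 and Marco are genes of the rule.

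Most genes of inflammatory signalling were lower in mutant alveolar macrophages, and the list of cytokines and chemokines had the lowest median of the 19 lists in all members and in the reduced set. The median of immediate early genes was the lower of the pair with genes from 5 UMIs (-2.10, against -1.72 for cytokines and chemokines), with genes from 100 UMIs (-2.05 and -1.59), in cells with a sum of at least 15 UMIs of the 5 rule genes (-3.43 and -2.40) and in cells with at most 3 cell cycle UMIs (-2.57 and -2.32). Of the 25 genes in the list of cytokines and chemokines, 16 could be compared, and 10 were at least 2-fold lower in the mutant and none higher, against 7.7% and 6.81% of all genes. Their median log2 ratio was -3.51, and in the reduced set it was -3.16, with 11 of 15 lower. Tnf, which encodes tumour necrosis factor, had 1 UMI (3.40 CPM) in mutant and 161 UMIs (539 CPM) in control members. It was 159-fold lower in the mutant (interval 28.1 to 6304), a ratio that rests on the single mutant UMI, and in the reduced set it had 1 mutant and 122 control UMIs, 130-fold lower. In control cells 26 of 48 had a Tnf UMI, and the cell with most held 18% of them, so the RNA was spread over many cells. Cxcl2, the neutrophil chemoattractant, had 9 UMIs (30.6 CPM) in mutant and 295 UMIs (987 CPM) in control members, 32.3-fold lower in the mutant (interval 16.8 to 71.3). In the reduced set the counts were 5 and 282 UMIs in the mutant and the control library, 60.3-fold lower (interval 25.5 to 187).

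Both forms of interleukin 1 were lower. Il1b (interleukin 1 beta) had 17 UMIs (57.7 CPM) in mutant and 183 UMIs (612 CPM) in control members, 10.6-fold lower in the mutant (interval 6.45 to 18.6), and Il1a (interleukin 1 alpha) had 3 UMIs (10.2 CPM) in mutant and 55 UMIs (184 CPM) in control members, 18.1-fold lower (interval 5.87 to 90.3). Over the reduced set Il1b was 8.95-fold and Il1a 17.8-fold lower. Cxcl10, a chemokine for T cells, had 3 UMIs (10.2 CPM) in mutant and 47 UMIs (157 CPM) in control members, and all 3 mutant UMIs came from 1 cell. Ccl3, a monocyte-attracting chemokine named here after its value was seen, had 6 UMIs (20.4 CPM) in mutant and 74 UMIs (248 CPM) in control members. Cxcl1, another neutrophil chemoattractant named on the same footing, had 0 UMIs (0 CPM) in mutant and 48 UMIs (161 CPM) in control members, at least 15.8-fold lower against a floor of 3 counts per library. Ccl24, an eosinophil chemoattractant of alternatively activated macrophages, had 0 UMIs (0 CPM) in mutant and 59 UMIs (197 CPM) in control members, but 96.6% of the control count came from 1 cell.

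Not every chemokine differed to this degree. Ccl6, which alveolar macrophages express constitutively, was by far the most abundant of the list, with 627 UMIs (2129 CPM) in mutant and 1103 UMIs (3690.3 CPM) in control members, 1.73-fold lower in the mutant and 1.27-fold lower in the reduced set (intervals 1.57 to 1.91 and 1.13 to 1.42). Ccl4, a close relative of Ccl3, had 9 UMIs (30.6 CPM) in mutant and 13 UMIs (43.5 CPM) in control members, with an interval for the fold lower of 0.563 to 3.77 that includes equality. Il18, a cytokine stored as a precursor by resting macrophages, had 105 UMIs (357 CPM) in mutant and 85 UMIs (284 CPM) in control members, a ratio of 1.25 (interval 0.933 to 1.69). Ccl4 and Il18 were named after their values were seen.

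To compare cells at 1 depth, each cell was thinned to 2000 UMIs, a depth that every member reached. Thinning leaves the choice of cells unlike, since deposited barcodes started at 3874 UMIs in the mutant and 2278 UMIs in the control library. The shallowest member had 4008 UMIs in the mutant and 2625 UMIs in the control library. The part of these unequal depth limits in the shares below was not tested. A Tnf UMI was then present in 1 of 47 mutant members (2.13%, interval 0.0539 to 11.3) and 20 of 48 control members (41.7%, 27.6 to 56.8). Cxcl2 was present in 4 mutant and 22 control members, Il1a in 1 mutant and 14 control, Il1b in 5 mutant and 20 control and Ccl3 in 3 mutant and 12 control members. Before thinning, a UMI was present in 1 mutant and 26 control members for Tnf, 5 and 24 for Cxcl2, 3 and 19 for Il1a, 10 and 27 for Il1b and 4 and 14 for Ccl3. In endothelial cells, which should not express Tnf, 0 of 456 mutant and 0 of 522 control cells had a Tnf UMI after thinning, which allows shares of up to 0.658% and 0.575%; their median depths were 5328 and 4692.5 UMIs. At least 3 UMIs of Tnf, Cxcl2, Il1a, Il1b, Ccl3 and Ccl4 together were present in 4 of 47 mutant members (8.51%, interval 2.37 to 20.4) and 25 of 48 control members (52.1%, 37.2 to 66.7), and in 4 of 34 mutant and 19 of 32 control cells of the reduced set. No mutant cell had more than 3 such UMIs, while control cells reached 28 and their 25th percentile was 0.

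The immediate early genes, which are transcribed within minutes of a stimulus, were lower as a group. Of 20 listed genes 18 could be compared, and the median log2 ratio was -2.05. In the mutant 15 were at least 2-fold lower and none higher, against 7.7% and 6.81% of all genes. Of 17 compared in the reduced set 15 were lower, with a median of -2.32. Egr1 (early growth response 1) had 8 UMIs (27.2 CPM) in mutant and 165 UMIs (552 CPM) in control members, 20.3-fold lower (interval 10.1 to 47.9), with 5 mutant and 122 control UMIs in the reduced set, 26.1-fold lower. Egr2, its macrophage-expressed relative, had 5 UMIs (17 CPM) in mutant and 51 UMIs (171 CPM) in control members. Nfkbia, the inhibitor of NF-kappaB that NF-kappaB itself induces, had 55 UMIs (187 CPM) in mutant and 239 UMIs (799.6 CPM) in control members, 4.28-fold lower (interval 3.18 to 5.85). The AP-1 subunit gene Fos had 103 UMIs (349.7 CPM) in mutant and 291 UMIs (974 CPM) in control members, 2.78-fold lower. Junb, another AP-1 subunit gene, had 84 UMIs (285 CPM) in mutant and 231 UMIs (773 CPM) in control members, 2.71-fold lower, and was lower library-wide. Nr4a1, an orphan nuclear receptor named after its value was seen, had 27 mutant and 123 control UMIs in all members and 4 and 77 in the reduced set, 4.49-fold and 20.6-fold lower.

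Per cell thinned to 2000 UMIs, mutant members had a median of 3 immediate early UMIs (range 0 to 33) and control members a median of 15 (range 2 to 58). The middle part of the cells (25th to 75th percentile) ran from 2 to 6 UMIs in mutant and from 8.75 to 28 UMIs in control members, so most cells of the 2 libraries separated while the full ranges overlapped. These genes also respond to tissue dissociation, and other cell types of the same libraries moved with them. In the monocyte gate 16 of 18 immediate early genes were at least 2-fold lower in the mutant, with a median of -2.08. In endothelial cells 6 of 18 were, with a median of -0.65. Over all genes 9.96% were lower in the monocyte gate and 3.03% in endothelial cells. For cytokines and chemokines the monocyte gate had 5 of 9 genes lower and a median of -3.29. There Il1b had 23 mutant and 223 control UMIs and Cxcl2 2 and 32 UMIs. The parts of sample handling and of the unequal depth limits in these differences were not tested.

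**Figure D3:**
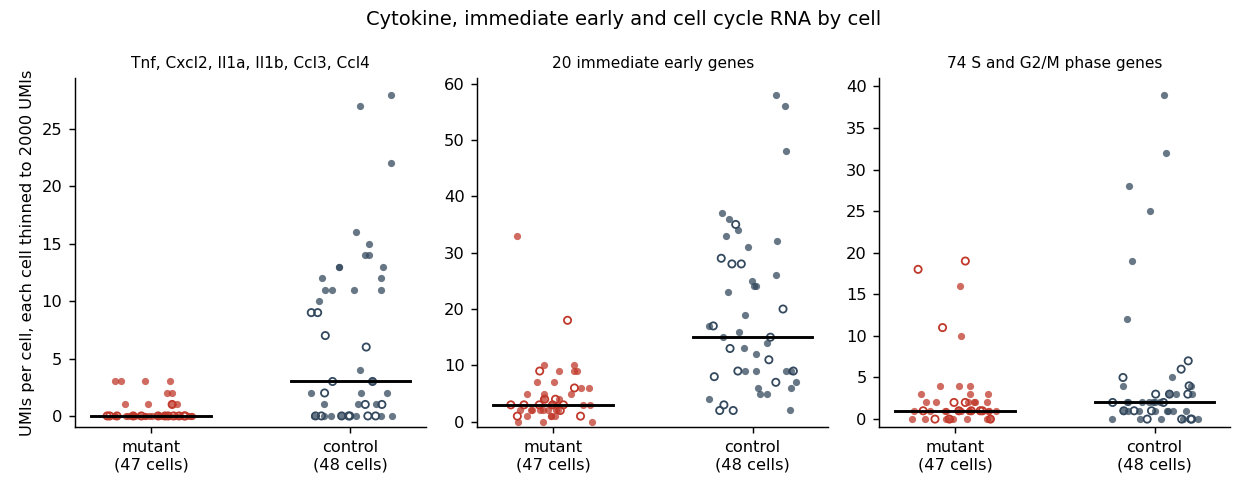
Each point is 1 member thinned to 2000 UMIs, mutant cells left and control cells right, with filled points for the reduced set, open points for the other members and a bar at the median of all members; the vertical axis is UMIs per cell of the genes named above each panel. The 6 cytokine genes stay at 3 UMIs or fewer in every mutant cell and reach 28 in control cells, immediate early medians are 3 and 15 UMIs, and cells with 10 or more cell cycle UMIs occur in both libraries.

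The promoters of 4 genes that carry these differences are printed from RefSeq (build GRCm38.p6), from 250 bases before to 50 after the annotated start, on the gene's strand, 5' to 3': Tnf at chr17:35201958-35202257 (minus strand), Cxcl2 at chr5:90903649-90903948 (plus), Il1b at chr2:129371090-129371389 (minus), and, as a gene that was higher in the mutant, Wfdc17 at chr11:83703806-83704105 (plus). Capitals mark a match to TATAAA, the core of the TATA box, or to GGGANNNTCC, a form of the NF-kappaB motif, each searched on both strands. Of 32851 mouse promoters of this length, 13.6% hold the first and 4.59% the second.
Tnf: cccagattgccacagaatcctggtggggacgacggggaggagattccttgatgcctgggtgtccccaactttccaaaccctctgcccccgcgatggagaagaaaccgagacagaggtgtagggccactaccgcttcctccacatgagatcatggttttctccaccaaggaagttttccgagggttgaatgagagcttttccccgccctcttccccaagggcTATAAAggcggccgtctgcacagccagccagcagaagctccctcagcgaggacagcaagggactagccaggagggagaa
Cxcl2: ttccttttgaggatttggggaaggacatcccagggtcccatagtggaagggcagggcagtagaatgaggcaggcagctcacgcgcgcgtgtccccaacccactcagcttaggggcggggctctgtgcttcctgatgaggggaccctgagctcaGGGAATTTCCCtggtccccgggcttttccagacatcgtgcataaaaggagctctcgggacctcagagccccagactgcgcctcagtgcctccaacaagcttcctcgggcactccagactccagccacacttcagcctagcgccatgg
Il1b: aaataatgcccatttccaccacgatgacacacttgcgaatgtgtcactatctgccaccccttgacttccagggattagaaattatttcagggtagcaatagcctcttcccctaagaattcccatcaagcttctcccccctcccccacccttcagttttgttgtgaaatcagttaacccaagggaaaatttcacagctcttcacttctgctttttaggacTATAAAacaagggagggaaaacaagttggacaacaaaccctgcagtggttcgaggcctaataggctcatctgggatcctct
Wfdc17: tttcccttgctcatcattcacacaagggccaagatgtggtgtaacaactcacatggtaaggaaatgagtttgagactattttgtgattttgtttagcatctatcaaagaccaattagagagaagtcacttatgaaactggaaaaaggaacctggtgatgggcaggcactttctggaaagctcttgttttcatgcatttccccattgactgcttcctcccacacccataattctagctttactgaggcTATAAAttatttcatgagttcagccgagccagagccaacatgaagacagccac
The TATAAA letters were found in 3 of these 4 promoters, starting 29 bases before the annotated start in Tnf, 31 before it in Il1b and 3 before it in Wfdc17. Only the Cxcl2 promoter held GGGANNNTCC, as 2 overlapping matches on opposite strands that start 97 and 96 bases before the start.

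Alveolar macrophage identity genes passed 2-fold in both directions, in a count that does not set the genes of the rule apart. Of 37 listed genes 30 could be compared, and 2 were at least 2-fold higher and 4 lower, against 6.81% and 7.7% of all genes. Their median log2 ratio was -0.06 (reduced set 2 higher, 3 lower of 30, median -0.21). The 13 unused markers helped choose the reduced set, and its count does not set them apart either. The levels of the genes that chose the cells are given as a description of the choice. Ear2 had 377 UMIs (1280.1 CPM) in mutant and 349 UMIs (1168 CPM) in control members, Ear1 96 UMIs (326 CPM) in mutant and 90 UMIs (301 CPM) in control members and Marco, a scavenger receptor for bacteria and particles, 46 UMIs (156 CPM) in mutant and 42 UMIs (141 CPM) in control members. Chil3 (Ym1, a chitinase-like secreted protein) had 120 UMIs (407 CPM) in mutant and 447 UMIs (1496 CPM) in control members, 3.67-fold lower in the mutant (reduced set 3.24-fold). A Chil3 UMI was present in 23 mutant and 24 control members, and the highest mutant cell had 19 and the highest control cell 152 UMIs. Among cells with under 5% mitochondrial UMIs the log2 ratio of Chil3 was -0.42, against -1.88 in all members. Krt79, a keratin gene that alveolar macrophages transcribe, had 7 UMIs (23.8 CPM) in mutant and 24 UMIs (80.3 CPM) in control members.

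Fabp4, a fatty acid binding protein downstream of PPAR-gamma, had 114 UMIs (387 CPM) in mutant and 25 UMIs (83.6 CPM) in control members, 4.63-fold higher in the mutant (interval 2.98 to 7.45). In the reduced set, whose choice used this gene, it had 109 mutant and 14 control UMIs. One mutant cell held 61 of the UMIs in all members, and after thinning the gene was seen in 8 mutant and 6 control members. In cells with at most 3 cell cycle UMIs the log2 ratio was -0.46, the other direction. Fabp1, another fatty acid binding protein, had 16 UMIs (54.3 CPM) in mutant and 60 UMIs (201 CPM) in control members, 3.69-fold lower in the mutant (interval 2.10 to 6.87). Cidec, a lipid droplet protein, had 7 UMIs (23.8 CPM) in mutant and 35 UMIs (117 CPM) in control members, 4.93-fold lower (interval 2.16 to 13.1), and was read from 6 mutant and 22 control cells. Lpl, the lipoprotein lipase gene, had 227 UMIs (771 CPM) in mutant and 222 UMIs (743 CPM) in control members and the tetraspanin gene Cd9 571 UMIs (1939 CPM) in mutant and 586 UMIs (1961 CPM) in control members, nearly equal levels. Of the markers named after their values were seen, Plet1, a surface protein of unclear role, had 131 UMIs (445 CPM) in mutant and 217 UMIs (726 CPM) in control members, the carbonic anhydrase gene Car4 110 UMIs (374 CPM) in mutant and 188 UMIs (629 CPM) in control members and the mannose receptor gene Mrc1 113 UMIs (384 CPM) in mutant and 130 UMIs (435 CPM) in control members. Pparg itself had 12 mutant and 25 control UMIs, with an interval for the fold lower of 0.994 to 4.48.

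**Figure D4:**
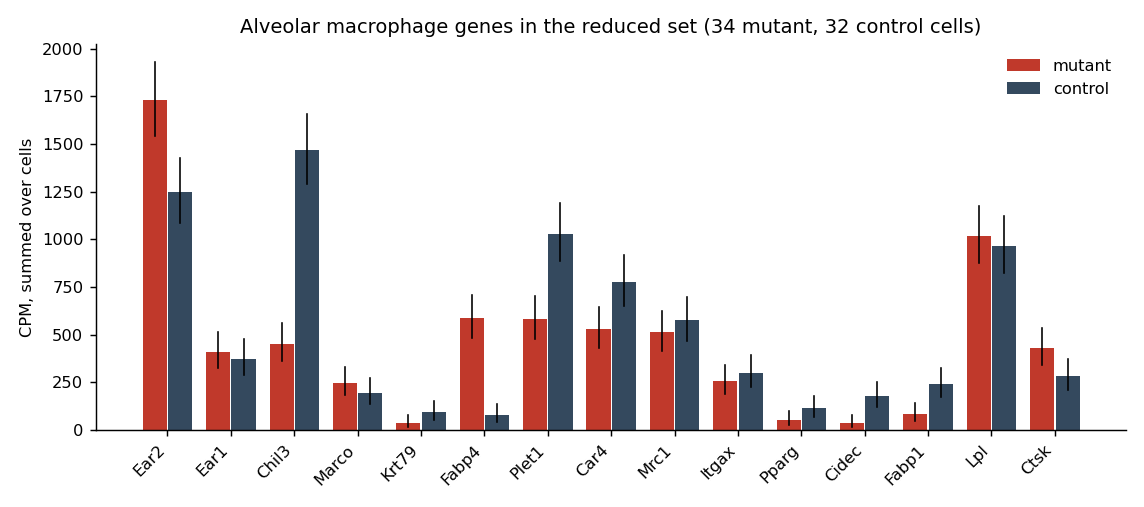
Bars are CPM of 15 alveolar macrophage genes summed over the reduced set, 34 mutant cells (red, left of each pair) and 32 control cells (dark, right), with exact 95% Poisson intervals that cover counting error only. Ear1, Ear2, Marco, Chil3 and Krt79 chose the members. Fabp4, Mrc1, Itgax, Plet1, Cidec, Fabp1 and the other unused markers helped choose the reduced set. The bars of all these genes describe the chosen cells. Neither choice used Lpl, which stands at nearly equal levels, or Ctsk, which is higher in the mutant. The log2 ratio of Ctsk lay between 0.60 and 1.09 over all alternatives, the reduced set among them.

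For receptors and targets of the growth factors that maintain these cells, the median in all members lay below that of all genes (-0.05). Of 21 genes of GM-CSF and TGF-beta signalling 13 could be compared, and 1 was at least 2-fold higher and 2 lower, against 6.81% and 7.7% of all genes. Of the 13 genes 4 lay above 0, and the median log2 ratio was -0.74 (interval over the genes -0.90 to 0.52). In the reduced set 1 was higher and 1 lower of 9, with a median of -0.10. Csf2ra, the alpha chain of the GM-CSF receptor, had 24 UMIs (81.5 CPM) in mutant and 49 UMIs (164 CPM) in control members, and Csf2rb, its shared beta chain, 75 UMIs (255 CPM) in mutant and 53 UMIs (177 CPM) in control members, so the 2 chains pointed in opposite directions. Cish, a feedback inhibitor that STAT5 induces, had 2 UMIs (6.79 CPM) in mutant and 18 UMIs (60.2 CPM) in control members, read from 2 mutant and 14 control cells. Socs2, another feedback inhibitor that STAT5 induces, pointed the other way, with 29 UMIs (98.5 CPM) in mutant and 7 UMIs (23.4 CPM) in control members, 4.20-fold higher in the mutant (interval 1.80 to 11.4) and 2.14-fold higher in the reduced set (0.833 to 6.15, which includes equality). Among macrophage transcription factors 4 of 17 genes were at least 2-fold lower and none higher, with a median of -0.29 (reduced set 2 of 15, -0.24); Egr2, which is also an immediate early gene, was among them.

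Several genes of secreted defence proteins were higher in mutant alveolar macrophages. Wfdc17, a small whey acidic protein family member that restrains macrophage activation, had 218 UMIs (740.2 CPM) in mutant and 25 UMIs (83.6 CPM) in control members, 8.85-fold higher in the mutant (interval 5.84 to 14), and 11.7-fold higher in the reduced set (6.90 to 21.3). After thinning it was present in 28 of 47 mutant (59.6%, interval 44.3 to 73.6) and 6 of 48 control members (12.5%, 4.73 to 25.2), against 0 of 456 mutant endothelial cells, which allows up to 0.658%, and 2 of 522 control endothelial cells. In the monocyte gate its levels were 679 CPM in the mutant and 625 CPM in the control library. Wfdc21, of the same family and named after its value was seen, had 238 UMIs (808 CPM) in mutant and 76 UMIs (254 CPM) in control members, and in the monocyte gate 0 mutant and 3 control UMIs. Over the reduced set it was 8.68-fold higher (interval 5.33 to 15). Slpi, the secretory leukocyte protease inhibitor and named on the same footing, had 77 UMIs (261 CPM) in mutant and 23 UMIs (77 CPM) in control members, 3.40-fold higher. Lyz2, which encodes lysozyme M, had 3157 UMIs (10719.5 CPM) in mutant and 1836 UMIs (6143 CPM) in control members, 1.75-fold higher, and 2.96-fold higher in the reduced set (interval 2.73 to 3.22). S100a8, the neutrophil calgranulin, had 74 mutant and 10 control UMIs in the reduced set, from which cells with neutrophil genes had been removed. Over the whole list of 20 antimicrobial and secreted genes, 15 could be compared. Of these 3 were higher and 1 lower, against 6.81% and 7.7% of all genes, with a median of 0.20. In the reduced set 4 were higher and 1 lower of 12, against 5.49% and 7.21% of all genes, with a median of 0.32.

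Single genes of matrix and lysosome were at least 2-fold higher in the mutant, among them Spp1, Fn1 and Cd63. Spp1 (osteopontin) had 210 UMIs (713 CPM) in mutant and 44 UMIs (147 CPM) in control members, 4.84-fold higher (interval 3.49 to 6.87), and was present in 20 mutant and 8 control members after thinning. Its counts in the reduced set were 165 mutant and 39 control UMIs, 3.96-fold higher. It was also higher in other mutant cell types, for example 8.78 CPM in mutant and 0 CPM in control endothelial cells, and among members with under 5% mitochondrial UMIs its log2 ratio was 1.11. Fn1 (fibronectin) had 256 UMIs (869 CPM) in mutant and 126 UMIs (422 CPM) in control members, 2.06-fold higher (interval 1.66 to 2.57; log2 ratio 0.31 in cells with at most 3 cell cycle UMIs). Cd63, a lysosomal tetraspanin, had 116 UMIs (394 CPM) in mutant and 35 UMIs (117 CPM) in control members, 3.36-fold higher, and 7.49-fold in the reduced set (interval 3.87 to 16.2). Of 28 lysosome genes 27 could be compared, and 1 was at least 2-fold higher and none lower, against 6.81% and 7.7% of all genes. But 20 lay above 0, with a median log2 ratio of 0.17 against -0.05 over all genes. The reduced set had 3 higher of 26 and a median of 0.34. Ctsd (cathepsin D) had 731 UMIs (2482 CPM) in mutant and 481 UMIs (1609 CPM) in control members and Ctsk (cathepsin K) 107 UMIs (363 CPM) in mutant and 59 UMIs (197 CPM) in control members, 1.54-fold and 1.84-fold higher.

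Among receptors for particles, Clec4n (dectin-2, which binds fungal mannan) had 146 UMIs (496 CPM) in mutant and 73 UMIs (244 CPM) in control members, 2.03-fold higher in the mutant (interval 1.52 to 2.73). Msr1 (scavenger receptor A) had 18 UMIs (61.1 CPM) in mutant and 2 UMIs (6.69 CPM) in control members, read from 14 mutant and 2 control cells, and its ratio against 2 control UMIs had an interval of 2.19 to 81.2; in cells with at most 3 cell cycle UMIs its log2 ratio was 0.35. Of 19 scavenger and pattern receptor genes compared, 4 were higher and 2 lower, against 6.81% and 7.7% of all genes. Their median was 0.06 (reduced set 2 and 2 of 16, 0.16). Fabp5, the epidermal-type fatty acid binding protein, had 348 UMIs (1182 CPM) in mutant and 157 UMIs (525 CPM) in control members, 2.25-fold higher (interval 1.86 to 2.73). The lipid uptake, storage and efflux list was divided, with 4 higher and 5 lower of 25 (median -0.22; reduced set 4 and 3 of 21, 0.25).

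The ferritin genes, whose products store iron, were among the most abundant transcripts of these cells and differed by less than 2-fold. Fth1 (ferritin heavy chain) had 4962 UMIs (16848 CPM) in mutant and 3020 UMIs (10104 CPM) in control members and Ftl1 (ferritin light chain) 4491 UMIs (15249 CPM) in mutant and 2888 UMIs (9662 CPM) in control members, 1.67-fold and 1.58-fold higher (intervals 1.59 to 1.75 and 1.51 to 1.65). In endothelial cells Fth1 stood at 1373 CPM in the mutant and 1331 CPM in the control library. Mt1, a metallothionein, had 900 UMIs (3056 CPM) in mutant and 416 UMIs (1392 CPM) in control members, 2.20-fold higher; it was higher in endothelial cells too, at 64.4 and 23.4 CPM in mutant and control cells, and its log2 ratio in members with at most 3 cell cycle UMIs was 0.11. Of 18 genes of iron handling and oxidative stress 3 were at least 2-fold higher and 2 lower, against 6.81% and 7.7% of all genes. Their median was 0.28 (reduced set 2 and 1 of 14, 0.38). The summed level of the list was 40868 CPM in mutant and 26524 CPM in control members.

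The antigen presentation genes past 2-fold were all lower in the mutant, but few cells carried the class II genes. Of 20 listed genes 12 could be compared, 5 were at least 2-fold lower and none higher, against 7.7% and 6.81% of all genes. Their median was -0.89 (reduced set 3 of 12, -0.60). Cd74, the invariant chain of MHC class II, had 97 UMIs (329 CPM) in mutant and 380 UMIs (1271 CPM) in control members, 3.86-fold lower, and the top cell held 74.2% of the mutant and 73.7% of the control count. The class II gene H2-Ab1 had 24 UMIs (81.5 CPM) in mutant and 196 UMIs (656 CPM) in control members, read from 3 mutant and 7 control cells. Retnla (resistin-like alpha) had 3 UMIs (10.2 CPM) in mutant and 253 UMIs (846 CPM) in control members, but 242 of the control UMIs came from 1 cell that also held C1qb and had under 5 UMIs of the unused markers. Retnla was at 0 and 7 UMIs in mutant and control cells of the reduced set. Of 16 genes of alternative activation 7 could be compared, and 1 was higher and 4 lower (median -1.88). In the reduced set the counts were 1 and 3 of 6 (median -0.93). The 4 lower ones in all members included Chil3 and also Retnla and Ccl24, whose control counts rest almost wholly on 1 cell each. Chil3 is a gene of the rule, so its level describes the choice, and the median of -1.88 is its own log2 ratio. Mmp12 (macrophage metalloelastase) had 1 UMI (3.40 CPM) in mutant and 26 UMIs (87 CPM) in control members from 1 mutant and 3 control cells, and Apoe (apolipoprotein E) 13 UMIs (44.1 CPM) in mutant and 101 UMIs (338 CPM) in control members, with 8 and 22 UMIs in the reduced set.

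The interferon-stimulated list had fewer genes past 2-fold in the reduced set, and 4 other lists had medians near 0 in both. Of 29 interferon-stimulated genes only 7 could be compared, with a median of -1.32. Of these 5 were at least 2-fold lower and none higher, against 7.7% and 6.81% of all genes. The reduced set had 1 lower of 4, against 7.21% of all genes, and a median of -0.28. The antiviral membrane protein gene Ifitm3 had 36 UMIs (122 CPM) in mutant and 157 UMIs (525 CPM) in control members in all members and 2 and 7 UMIs in the reduced set, against 787 mutant and 956 control UMIs in the monocyte gate. Glycolysis had no gene past 2-fold among 10 (median -0.14), and heat shock and unfolded protein genes had 1 lower of 14 (median -0.21). Sterol and fatty acid synthesis genes had 3 higher and 1 lower of 13 (median 0.02), and matrix and growth factor genes 5 higher and 3 lower of 17 (median 0.07). These 4 medians were 0.05, -0.17, -0.14 and 0.16 in the reduced set.

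**Figure D5:**
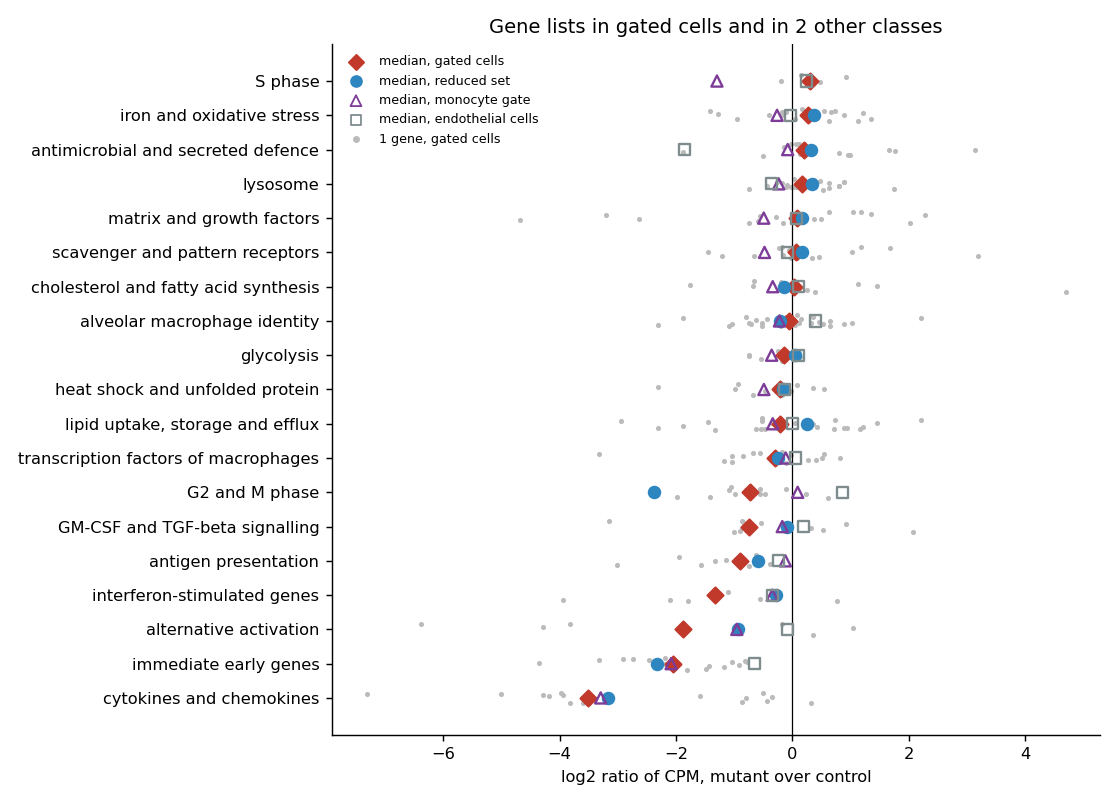
Each row is a gene list; the horizontal axis is the log2 ratio of CPM, mutant over control. Grey dots are single genes in all members, and larger symbols are the list's median in all members, the reduced set, the monocyte gate and endothelial cells, drawn where at least 3 genes could be compared. The cytokine median lies lowest in members, reduced set and monocyte gate, the immediate early median is next in members and the monocyte gate, G2/M (-2.37) lies just below immediate early genes (-2.32) in the reduced set, and in endothelial cells the immediate early median is -0.65.

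Dividing alveolar macrophages were found in both libraries. After thinning, at least 10 UMIs over the S and G2/M phase genes were present in 5 of 47 mutant (10.6%, interval 3.55 to 23.1) and 6 of 48 control members (12.5%, 4.73 to 25.2), and in 2 of 34 and 6 of 32 cells of the reduced set. Of 40 G2/M genes 14 could be compared, with a median of -0.73. In the mutant 4 were at least 2-fold lower and none higher, against 7.7% and 6.81% of all genes. All 8 that could be compared in the reduced set were at least 2-fold lower (median -2.37), against 7.21% of all genes there. The intervals for its shares of cells with at least 10 such UMIs overlap, at 0.72% to 19.7% in the mutant and 7.21% to 36.4% in the control library. The part of these few cells in the 8 ratios was not tested. Of 34 S phase genes only 4 could be compared, none past 2-fold and 3 above 0, with a median of 0.31. In the reduced set 1 S phase gene could be compared, at -0.19. Ube2c, a mitotic ubiquitin-conjugating enzyme, had 10 UMIs (34 CPM) in mutant and 27 UMIs (90.3 CPM) in control members in all members. In endothelial cells the G2/M median was 0.86, the other direction.

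The genes that set alveolar macrophages apart from the other leukocytes of the same library, by the smaller of the 2 ratios, were led by Ear1, Chil3, Fabp1 and Fabp4, of which Ear1 and Chil3 were used by the rule. Fabp1 was 39.3-fold higher than in the other leukocytes in the mutant and 29.4-fold in the control library. Ltc4s, the leukotriene C4 synthase, was 16.5-fold and 17.3-fold higher, Tfec, a MiT family transcription factor of macrophages, 14.7-fold and 15.5-fold, Olr1, the oxidised LDL receptor, 16.2-fold and 42.4-fold, and Ctsk 12-fold and 24.8-fold in the mutant and the control library. The neutrophil granule genes Ngp and Ltf also met this measure, and both were at 0 UMIs in the reduced set. These classes differ by the rule itself, so the ratios are a description.

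Within a library the members were uneven. The 10 genes with the largest variance over mean after thinning were neutrophil genes such as S100a8, S100a9, Ngp and Camp, and Plac8, a monocyte gene, and nearly all of their UMIs came from cells outside the reduced set. In the reduced set, ranked by the smaller of the 2 libraries' values, the most uneven genes were Cd74, the actin gene Actb and the class II gene H2-Aa, with a variance over mean of 14.3, 11.2 and 9.13 in the mutant and 40.0, 23 and 17 in the control library. Also among the first 10 in this order, Mt2, another metallothionein, stood at 15.2 in the mutant and 6.02 in the control library, above Cd74 in the mutant, and Malat1, a long non-coding RNA, at 6.68 and 21.3, above H2-Aa in the control library.

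Epithelial RNA was read in alveolar macrophages of both libraries and differed strongly. Sftpc had 1678 UMIs (5698 CPM) in mutant and 689 UMIs (2305 CPM) in control members, yet the mutant count sat in 3 cells with at least 100 UMIs, and after thinning a Sftpc UMI was present in 10 of 47 mutant (21.3%) and 48 of 48 control members (100%), against 27.4% of mutant and 97.9% of control endothelial cells. In the reduced set Sftpc had 23 mutant and 391 control UMIs. The share in members was thus near that of endothelial cells, which do not express the gene. In the reduced set the share was 14.7% in the mutant and 100% in the control library. The part of RNA from outside the cells in these shares was not tested. Ager, the alveolar type 1 cell gene named after its value was seen, had 213 mutant and 862 control UMIs in all members and 1 and 22 in the reduced set. Tnf stood at 0 CPM in mutant and 0.371 CPM in control endothelial cells and Wfdc17 at 0 and 0.743 CPM, under their levels in the members of the same library.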

How the data were processed

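The deposited values were raw UMI counts per gene and barcode that the authors made for 27998 genes, 1 matrix per library, and Cell Ranger, Seurat and mm10 were listed per the submitters' processing notes. Software versions, the annotation and the cell filter were not given in the sources used. Deposited barcodes started at 3874 UMIs in the mutant and 2278 UMIs in the control matrix. Kept barcodes had at least 500 genes and under 10% mitochondrial UMIs, and members were chosen by the rule at the start of the report. The members, the 19 gene lists and the comparisons were chosen with earlier results of these data known, and the reduced set after its values were seen.

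UMIs of each gene were added up over a library's member cells, scaled to CPM and compared as mutant over control, with exact conditional binomial intervals for ratios, exact Poisson intervals for CPM and Clopper-Pearson intervals for shares. Where a library had 0 UMIs the ratio was taken against a floor of 3 counts per library. The calculation was tested on simulated data drawn for the 3831 compared genes with 200 changed. It recovered 100% of 4-fold higher and 88% of 4-fold lower genes past 2-fold. It put 5.4% of unchanged genes past 2-fold, and 95.8% of intervals held the true ratio. The simulated sums had counting error only, which the intervals assume, and no differences between cells. These percentages therefore cannot show how the calculation does for genes whose UMIs sit in few cells. UMIs remove PCR copies, but intervals leave out differences between animals and preparations.

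Named genes were the rule's genes and Fabp4, per list the 3 members with the highest CPM and the 2 with the largest log2 ratio at 50 CPM or more, the 10 genes at each end of the ratio given 50 or more UMIs and 100 CPM, the 10 highest, the 10 most raised over other leukocytes and the 10 most variable. Genes outside this rule are marked as named after their values were seen, and some genes that it names are not described. Scrublet, run through scanpy 1.11.5 per library, called 90 of 4418 mutant cells (2.04%) and 9 of 4141 control cells (0.217%) doublets and no member, so no cell was removed by it. Few calls in the control library mean that doublets may remain, and members with epithelial RNA were left in the main values and out of the reduced set. Endothelial cells had no limit on depth, and the monocyte gate held 54 mutant and 49 control leukocytes. Analyses used Python 3.11.15, numpy 2.4.6, scipy 1.17.1, pandas 2.3.3 and matplotlib 3.10.9, and promoter sequences came from RefSeq tables of GRCm38.p6.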

Additional observations from a re-analysis of the deposited data

Results flagged for a closer look

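Some genes named by the rule pointed one way in alveolar macrophages and the other way in another class of the same 2 libraries, all differences that were not tested because each class has 1 library per genotype. Sftpc, the surfactant protein C gene, had a log2 ratio of 1.31 in members against -3.53 in endothelial cells and -1.35 in the monocyte gate, and -4.18 in the reduced set. The epithelial genes Cxcl15 (2.44 in members, -2.31 in endothelial cells, -1.46 in the monocyte gate and -3.10 in the reduced set) and Sftpd (3.44, against -1.67 in endothelial cells and -1.10 in the reduced set) did the same. Scd1, a fatty acid desaturase, stood at 4.69 in members and -1.11 in endothelial cells, and 1 mutant cell held 84.3% of its mutant UMIs. S100a9, the partner of S100a8, was at 1.35 in members and -2.01 in the monocyte gate, with no UMI in the reduced set.

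The mitotic gene Ube2c was at -1.41 in members, -3.68 in the reduced set and 1.63 in the monocyte gate. Clec4d, a C-type lectin of myeloid cells, was at 1.68 in members, 1.90 in the reduced set and -1.60 in the monocyte gate, from 19 mutant and 6 control UMIs in members. Of these genes Ube2c and Clec4d kept their direction in the reduced set with a UMI in both libraries.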

How the results depend on the processing

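No paired analysis was possible because there is 1 library per genotype and the labels carry no replicate numbers. Over all alternatives, 260 of the summary values stayed within 1.5 times the main count (gene counts and cell numbers) or within the interval of the main median over a list's genes, 32 lay outside and 1 reversed. These intervals are wide: 24 list medians inside them changed sign, all with main values between -0.22 and 0.31, and inside them the medians of alternative activation and interferon-stimulated genes came to -0.42 under 5% mitochondrial UMIs and -0.28 in the reduced set, against -1.88 and -1.32. Of the values for single named genes 1238 stayed within the counting interval of the main ratio, 278 lay outside and 9 reversed. The limits of 5 and of 100 UMIs and the doublet calls could not change a single gene's ratio, and each gave 114 of the 1238. Scaling by the median of gene ratios shifted all log2 ratios by the same amount and gave another 114. The medians of cytokines and of immediate early genes kept their negative sign under every alternative run, between -3.65 and -1.59 and between -3.43 and -1.89. Genes at least 2-fold higher and lower numbered 1132 and 1009 with genes from 5 UMIs, 21 and 49 from 100 UMIs, 70 and 127 with thinned cells, 128 and 168 in the reduced set and 120 and 156 there with free RNA subtracted. They numbered 100 and 147 in cells with at least 15 marker UMIs (12 mutant, 18 control cells) and 71 and 113 in cells with at most 3 cell cycle UMIs (22 mutant, 16 control). Higher genes numbered 167 in cells with no UMI of Epcam, Pecam1 or Col1a2, and 143 under 5% mitochondrial UMIs (30 mutant cells). Fewer cells and fewer compared genes enter these counts.

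List medians that moved were antimicrobial 1.24, alternative activation 0.14 (reversed), glycolysis 0.16 and immediate early genes -3.43 with at least 15 marker UMIs; GM-CSF and TGF-beta 0.54 and immediate early genes -2.57 in cells with few cell cycle UMIs; glycolysis 0.11 after thinning; G2/M -1.46 as a mean over cells; antigen presentation -0.60 and G2/M -2.37 in the reduced set, and -0.60 and -2.46 there with free RNA subtracted. Reversed genes were Ifitm2 (0.87) and Ifitm3 (0.093) with at least 15 marker UMIs; Fabp4 (-0.46), Clec4d (-0.24) and Krt79 (0.57) in cells with few cell cycle UMIs; Cxcl15 (-3.10), Ifitm2 (0.90) and Sftpc (-4.18) in the reduced set; and Ifitm2 (1.40) there with free RNA subtracted. The mutant cells with at least 15 marker UMIs included the cell with 1733 neutrophil gene UMIs. The control cell with 2060 such UMIs had a marker sum of 5 and was left out there. The log2 ratio of S100a9 was 9.32 in that setting, against 1.35 in all members. The part of the neutrophil cell in the medians of that setting was not tested. Apart from the number of cells and genes, the cause of the other shifts was not tested. What was subtracted as free RNA was the summed profile of all deposited barcodes of a library, cells included, scaled so that Sftpc fell to 0. It could not be subtracted from all members, since scaling to the 3 Sftpc-rich cells would remove 63.2% of the mutant counts. The doublet calls held no member, so that alternative left each value as it was. With 47 and 48 cells, a gene under about 20 UMIs is read from few molecules.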

Other observations

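Some measured facts belong to none of the comparisons. Among the genes of alveolar macrophages with the highest levels, Tmsb4x, an actin-binding peptide gene, had 6304 mutant and 5360 control UMIs in the reduced set and the long non-coding RNA Malat1 2090 mutant and 2337 control UMIs. Dendritic cell markers summed to 2 mutant and 1 control UMIs in all members and B cell markers to 6 mutant and 8 control UMIs. Mast cell or basophil markers were at 0 UMIs in the members of both libraries. Galectin 3 (Lgals3), a lectin that macrophages secrete, had 478 UMIs (1623 CPM) in mutant and 732 UMIs (2449 CPM) in control members, 1.51-fold lower in the mutant (interval 1.34 to 1.70), and 1.32-fold lower in the reduced set (1.15 to 1.51).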
